A study of Mus musculus with 32 samples.

Results

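Silencing of Dnmt1 in cultured mouse lung endothelial cells (ECs) that were then given tumor necrosis factor (TNF) was examined by bulk RNA-seq. The comparison took the 4 libraries labelled si-dnmt + TNF against the 4 labelled si-control + TNF, 8 of the 32 libraries of the series, over every gene of the merged count table that passed a filter on low counts. The cells were Veravec, a mouse lung EC line. They were transfected with a control siRNA or with siRNA against Dnmt1, transfected again the next day, and treated with TNF at 10 ng/mL for 16 h, so that both groups shared the line, the repeated transfection and the cytokine and differed in the siRNA. The treatment label of the silenced group reads si-dnmtl + TNF. The study describes the 4 replicates of a group as biological. The labels give no day, passage or batch, so p-values measure the spread between these cultures of 1 line. DNA methylation itself was not measured in these libraries. The remaining 6 groups held the untreated, IFN and TNF + IFN cultures of both siRNAs.

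Dnmt1 encodes the maintenance DNA methyltransferase, which copies CpG methylation onto the new strand after replication. Uhrf1 guides it to that DNA, while Dnmt3a and Dnmt3b add methylation to unmethylated sites. TNF binds its receptor on ECs and, through TRAF adaptors and the IKK kinases, releases NF-kB, which turns on adhesion molecules, chemokines, cytokines and antigen presentation genes. ECs lining lung vessels use these products to arrest leukocytes and to present ligands to T cells.

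The libraries held 17952470 to 20427099 counts in si-dnmt + TNF and 20904131 to 22677895 in si-control + TNF. Levels are given as CPM, counts relative to the library total after TMM scaling, and a fold change is the log2 ratio of silenced over control ± SE from edgeR's quasi-likelihood fit of all 32 libraries with 8 group means. A gene was called at a Benjamini-Hochberg adjusted p under 0.05 over the 15250 genes tested. Below, control and silenced replicates are the libraries of si-control + TNF and si-dnmt + TNF. Replicates 1 and 2 stood apart from replicates 3 and 4 in both groups on the first component, which held 44.6% of the variance of the 8 libraries, and the siRNAs on the second, which held 28.7%. The separation was not clean, since within each pair of replicates the siRNAs also differed along the former and within each siRNA the pairs also differed along the latter. What separates these pairs is not given in the sources used here, and its part in the results was not tested. Changes within replicates 1 and 2 and within replicates 3 and 4 are therefore also given for some genes, and a call that was lost when 1 of the 8 libraries was left out is reported with that library. Same-numbered libraries of the 2 groups deviated together only in part, since silenced replicates 3 and 4 correlated best with control replicates 4 and 3. With the number as a block all 3051 genes called below were still called.

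The EC label held against its markers. All 25 genes of the endothelial identity list were above the filter, with a summed level of 6751 to 9429 CPM in control and 5929 to 8525 CPM in silenced libraries. Of the leukocyte markers, Ptprc (CD45) and Cd3e held at most 1 count over the 4 libraries of either group, while Cd68, a lysosomal gene of many cells, and Lyz2 made up most of a summed level of 139.6 to 235 CPM in control and 90.1 to 149 CPM in silenced libraries. Epithelial markers summed to 4.94 to 12.3 and 5.07 to 12.1 CPM, nearly all Krt18 and Krt19, with Sftpc at 0 counts in every library. Fibroblast markers summed to 14.7 to 55.9 CPM in control and 7.87 to 31.3 CPM in silenced libraries, mostly Dcn, with Dpt at 0 counts. In bulk RNA, fewer cells of a type and less RNA per cell cannot be told apart.

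The silenced gene, Dnmt1 (ENSMUSG00000004099), was at 157, 156, 185 and 189.8 CPM in si-control + TNF and 16.0, 14.97, 6.96 and 9.20 CPM in si-dnmt + TNF. No silenced library came near the control range, and the mean of the silenced group was 14.6-fold lower (log2 fold change -3.87 ± 0.37, adjusted p 3.1e-08). On the log2 scale the change was -3.34 in replicates 1 and 2 and -4.54 in replicates 3 and 4. The 2 de novo enzymes rose. Dnmt3a was at 31.3, 33.4, 25.6 and 25.5 CPM in si-control + TNF and 47.2, 45.4, 39.3 and 38.2 CPM in si-dnmt + TNF, without overlap (log2 fold change 0.56 ± 0.09, adjusted p 8.3e-05). Dnmt3b went from 2.51 ± 0.425 to 4.58 ± 0.609 CPM (log2 fold change 0.86 ± 0.18, adjusted p 0.0010). These were the 2 rises among the 17 genes of the methylation machinery that were tested, and 5 fell: Dnmt1, the Uhrf1 relative Uhrf2 (-0.46), the 5-methylcytosine oxidase Tet3 (-0.48) and the methyl-CpG binding zinc finger genes Zbtb33 (-0.39) and Zbtb4 (-0.34). The median over the list was -0.19, against 0.00 over all genes tested. Over all genes, 10.4% were called higher and 9.59% lower. Uhrf1 itself was at 124, 127, 145 and 158 CPM in si-control + TNF and 112, 107, 82.9 and 93.7 CPM in si-dnmt + TNF and did not pass (log2 fold change -0.49 ± 0.27, adjusted p 0.22), although every silenced library lay below every control library. Uhrf2 lost its call without control replicate 3 or 4 or silenced replicate 1, 2, 3 or 4 (log2 fold change -0.47 to -0.35). Tet3 lost its call without control replicate 1, 2 or 3 or silenced replicate 1, 3 or 4 (log2 fold change -0.51 to -0.40). Zbtb4 lost its call without control replicate 1 or 2 or silenced replicate 3 (log2 fold change -0.32 to -0.31). The methylation machinery counts were 3 higher and 7 lower with the replicate number as a block, 2 and 7 in the fit of the 2 groups alone, and 2 and 2 to 4 without 1 library.

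**Figure D1:**
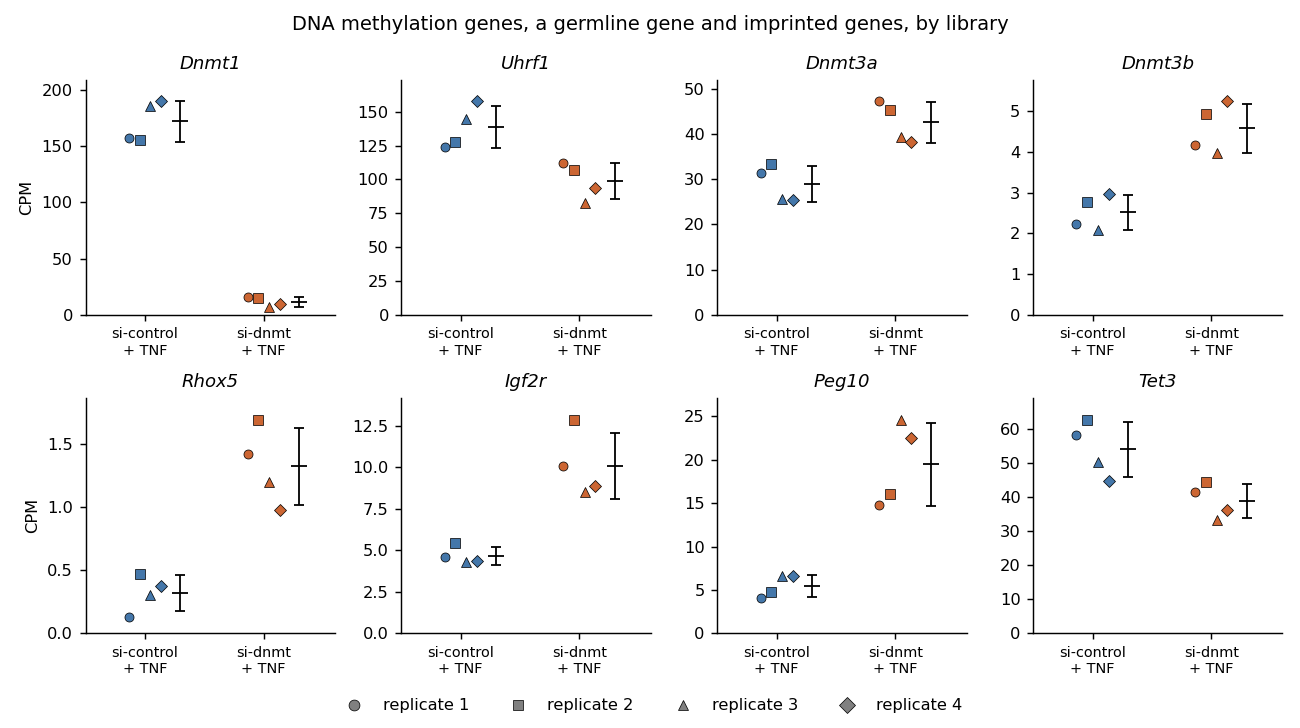
CPM (linear axis from 0) in each library of si-control + TNF (blue) and si-dnmt + TNF (orange) for 4 methylation enzymes or cofactors, Tet3, and the 3 called genes of the germline and imprinted lists; symbols mark the replicate number, and the bar is the mean ± SD (n = 4). Dnmt1 lies at 6.96 to 16.0 CPM in the silenced libraries and at 156 to 189.8 CPM in the control libraries, while Dnmt3a, Dnmt3b, Rhox5, Igf2r and Peg10 lie higher in every silenced library.

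Genes under known methylation control were described from lists. Of 20 germline genes, whose promoters are methylated in somatic cells, only 3 passed the low-count filter, and 1 of these rose. Rhox5, an X-linked homeobox gene of the reproductive tract, was at 0.129, 0.469, 0.303 and 0.371 CPM in si-control + TNF and 1.42, 1.69, 1.20 and 0.977 CPM in si-dnmt + TNF. All silenced libraries were above all control libraries (log2 fold change 2.05 ± 0.39, adjusted p 0.00041), at a level near 1 CPM. The tested germline genes Mov10l1 (-0.42) and Brdt (-0.999) were not called. Of 20 imprinted genes tested, 2 were called higher and 0 lower, with a median of -0.05. Over all genes tested 10.4% were called higher and 9.59% lower, so the imprinted rises were near that share. Igf2r, the maternally expressed receptor that clears IGF2, was at 4.60, 5.44, 4.28 and 4.36 CPM in si-control + TNF and 10.1, 12.9, 8.49 and 8.84 CPM in si-dnmt + TNF (log2 fold change 1.11 ± 0.17, adjusted p 1.9e-05). Peg10, a paternally expressed retrotransposon-derived gene, was at 4.13, 4.74, 6.57 and 6.59 CPM in si-control + TNF and 14.7, 16.1, 24.6 and 22.5 CPM in si-dnmt + TNF (log2 fold change 1.82 ± 0.43, adjusted p 0.0031). Neither gene overlapped between the groups. The calls among imprinted genes were 2 higher and 3 lower with the replicate number as a block, 2 and 0 in the fit of the 2 groups alone, and 2 and 0 to 1 without 1 library. With the block, the calls over all 15250 genes also grew, from 1588 to 2629 higher and from 1463 to 2469 lower.

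The sequence just upstream of Rhox5 is shown because methylation of promoter CpGs is the mark that Dnmt1 maintains, with each CG in capitals. RefSeq promoter windows were matched to 70.4% of the genes tested, 77.7% of those called higher and 77.0% of those called lower, so a comparison of CpG content between the called and uncalled genes was void for want of matches. Over all 32851 windows in the table, the 250 bases upstream of a start held a median of 6 CG (quartiles 2 and 16). The 250 bases before the Rhox5 start (GRCm38.p6, chrX:37754358-37754607, plus strand, 5′ to 3′) held 4.
Rhox5: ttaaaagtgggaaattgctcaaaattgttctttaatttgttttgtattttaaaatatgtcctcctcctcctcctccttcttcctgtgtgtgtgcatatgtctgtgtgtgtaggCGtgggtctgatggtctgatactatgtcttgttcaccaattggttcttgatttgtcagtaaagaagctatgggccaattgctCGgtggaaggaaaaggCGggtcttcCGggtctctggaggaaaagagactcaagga

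Under TNF, 1588 genes were higher and 1463 lower in silenced cells, 3051 in all or 20.0% of the genes tested. Of these, 676 (4.43% of the genes tested) differed by at least 1 on the log2 scale, 448 higher and 228 lower. The large changes were mostly rises: 150 genes rose by at least 2 on that scale and 22 fell by as much. The genes that rose had a median level of 21.2 CPM over the 8 libraries and those that fell one of 42.5 CPM. In 1291 of the 1588 genes called higher every silenced library was above every control library, and in 1198 of the 1463 called lower every one was below. Over all 15250 genes tested, 11.5% were above and 11.2% below in this way. With each library left out in turn, 1726 of the 3051 calls (56.6%) were made every time. In both replicates 1 and 2 alone and replicates 3 and 4 alone 2066 (67.7%) were made, and 2 changed sign between these pairs. The block on replicate number raised the counts to 2629 higher and 2469 lower, and the fit of the 2 groups alone gave 1068 and 1240. Replicates 1 and 2 alone gave 2098 higher and 1917 lower, and replicates 3 and 4 alone 2684 and 2839. Counts of single lists in any of these fits are to be read beside these totals. Those of the main fit are to be read beside the shares over all genes, 10.4% higher and 9.59% lower.

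**Figure D2:**
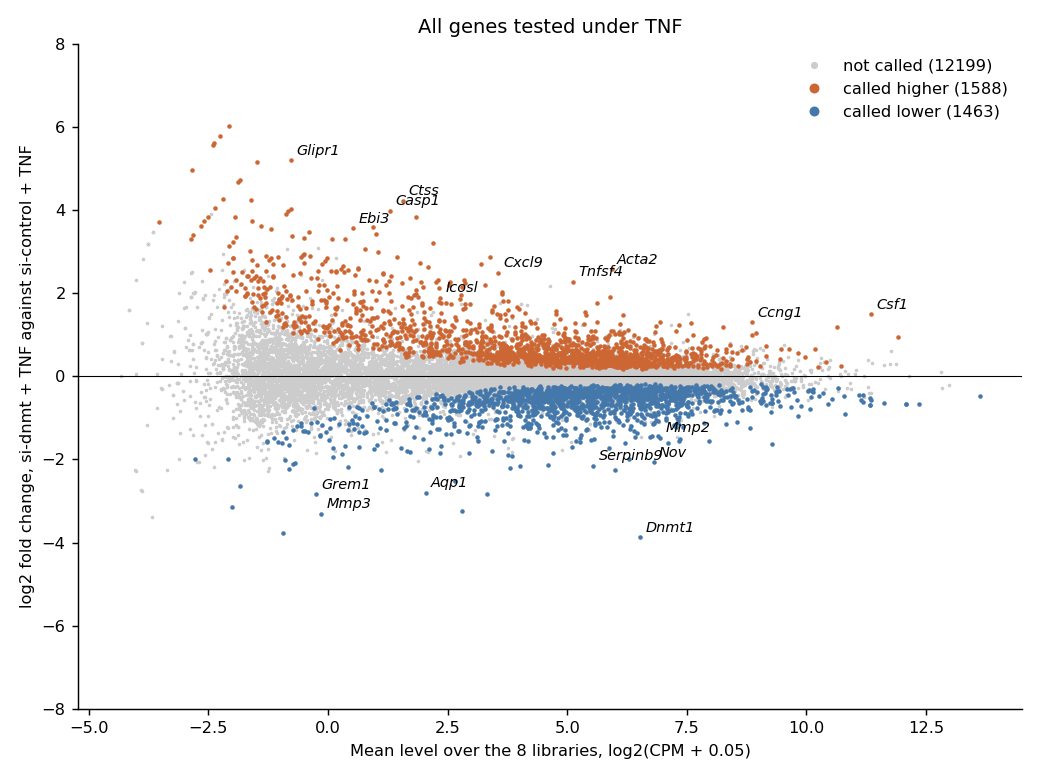
Each point is 1 of the 15250 genes tested, with its mean level over the 8 libraries, as log2(CPM + 0.05), on the horizontal axis and its log2 fold change (si-dnmt + TNF against si-control + TNF) on the vertical axis; orange points were called higher (1588), blue lower (1463), and grey were not called (12199). The genes past 2 on the vertical axis are mostly rises of genes at low levels, and Dnmt1 is the largest fall among genes above 1 CPM.

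The 15 largest rises without overlap, among genes at 1 CPM or more in the silenced group, were Glipr1, Ctss, Tnf, Casp1, Cngb3, Ebi3, P2rx7, Tmem130, Fat2, Themis, Myl9, Myom2, Il5ra, Slc16a9 and Afp. All had a mean under 1 CPM in control cells. Glipr1, a secreted CAP-family gene, held 2 counts over the 4 control libraries and 87 over the 4 silenced libraries, a ratio of 46.1 (95% exact interval 12.4 to 386, counting error only). Tnf, the gene of the cytokine itself, held 5 and 86 counts, a ratio of 18.2 (7.51 to 57.5), and was at 1.05, 1.83, 0.600 and 0.566 CPM in the silenced libraries. Myl9, a smooth muscle myosin light chain, was at 0.430, 0.610, 0.692 and 1.81 CPM in si-control + TNF and 6.46, 5.35, 11.8 and 9.05 CPM in si-dnmt + TNF (log2 fold change 3.20 ± 0.60, adjusted p 0.00034). Afp, a fetal liver gene, was at 0.301, 0.141, 1.04 and 1.02 CPM in si-control + TNF and 2.20, 3.19, 7.06 and 6.22 CPM in si-dnmt + TNF (log2 fold change 2.89 ± 0.63, adjusted p 0.0015). In all of them the silenced libraries were above the control libraries by the rule that chose them. Cngb3, a photoreceptor channel subunit (0.281 ± 0.145 against 3.45 ± 1.55 CPM), Themis, a thymocyte signalling gene (0.221 ± 0.145 against 2.25 ± 0.347 CPM), Il5ra, the interleukin 5 receptor alpha chain (0.445 ± 0.0982 against 3.57 ± 1.44 CPM), and Myom2, a sarcomere gene (0.352 ± 0.434 against 2.97 ± 0.640 CPM), are characteristic of other tissues. The adhesion gene Fat2 (0.179 ± 0.138 against 1.83 ± 0.485 CPM), Tmem130 (0.112 ± 0.0778 against 1.19 ± 0.394 CPM) and the transporter Slc16a9 (0.145 ± 0.173 against 1.16 ± 0.932 CPM) were the remaining rises on this rule. Slc16a9 lost its call without silenced replicate 3 (log2 fold change 2.45).

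The 15 largest falls on the same rule were Dnmt1, Mmp3, Grem1, Aqp1, Ptgds, St8sia4, Lhfpl2, Eln, Vldlr, Serpinb9, Pgf, Nov, Hmgcs1, Eif5a2 and Sgpp1. Nov (CCN3), a matricellular protein that restrains NF-kB activity in ECs, was at 151, 169, 216 and 186 CPM in si-control + TNF and 45.8, 35.2, 47.0 and 44.9 CPM in si-dnmt + TNF (log2 fold change -2.06 ± 0.14, adjusted p 2.7e-10). Serpinb9, the inhibitor of granzyme B, was at 70.3, 71.7, 81.8 and 80.4 CPM in si-control + TNF and 16.9, 18.2, 14.7 and 18.7 CPM in si-dnmt + TNF (log2 fold change -2.15 ± 0.21, adjusted p 5.3e-08). Both groups were tight and far apart for these genes. Eif5a2, a translation factor isoform, was at 22.05, 20.6, 25.6 and 22.1 CPM in si-control + TNF and 7.74, 6.05, 5.26 and 4.68 CPM in si-dnmt + TNF (log2 fold change -1.93 ± 0.19, adjusted p 5.3e-08). St8sia4, a polysialyltransferase, was at 154, 159, 62.3 and 49.4 CPM in si-control + TNF and 36.7, 37.0, 7.24 and 7.40 CPM in si-dnmt + TNF (log2 fold change -2.26 ± 0.74, adjusted p 0.031). For this gene control replicates 3 and 4 lay close to silenced replicates 1 and 2. Lhfpl2 (22.8 ± 7.86 against 4.92 ± 0.962 CPM, log2 fold change -2.21 ± 0.29, adjusted p 2.9e-06) and the sphingosine phosphatase Sgpp1 (21.3 ± 3.68 against 5.68 ± 1.42 CPM, log2 fold change -1.90 ± 0.22, adjusted p 4.2e-07) fell as well. St8sia4 lost its call without control replicate 1 or 2 or silenced replicate 3 or 4 (log2 fold change -2.03 to -1.97). By change in mean CPM, the largest rises of at least 1 on the log2 scale were those of Csf1, Thbs1, Ccng1, Hmox1 and Cxcl5, and the largest falls those of Scd2, Slc7a11, Atf4, Ppp1cb and Kif5b. Ppp1cb, a protein phosphatase 1 catalytic subunit, was at 445, 369, 357 and 320.1 CPM in si-control + TNF and 159.5, 148, 104 and 98.3 CPM in si-dnmt + TNF (log2 fold change -1.55 ± 0.17, adjusted p 1.6e-07), and Kif5b, a kinesin heavy chain, at 437 ± 34.1 and 197 ± 50.1 CPM (log2 fold change -1.15 ± 0.15, adjusted p 3.6e-06). Scd2, a stearoyl-CoA desaturase, was at 1291, 1424, 515 and 514 CPM in si-control + TNF and 407, 534, 133 and 136 CPM in si-dnmt + TNF (log2 fold change -1.63 ± 0.54, adjusted p 0.033). Scd2 lost its call without control replicate 1 or 2 or silenced replicate 3 or 4 (log2 fold change -1.44 to -1.35).

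Calls in the receptor-proximal TNF pathway were near the share over all genes. Of 25 genes of the TNF receptor complex, 3 rose and 3 fell, with a median of -0.06. The receptors Tnfrsf1a (0.06) and Tnfrsf1b (-0.28) and the kinase Ripk1 (0.01) were not called. The adaptors Traf6 (log2 fold change 0.50 ± 0.10, adjusted p 0.00042) and Traf3 (log2 fold change 0.40 ± 0.11, adjusted p 0.013) and the kinase Map3k7, which encodes TAK1 (log2 fold change 0.29 ± 0.08, adjusted p 0.0077), rose. Cyld, the deubiquitinase that takes K63 and linear chains off this complex, was at 133, 132, 238 and 214 CPM in si-control + TNF and 90.5, 91.2, 80.5 and 83.1 CPM in si-dnmt + TNF. It was lower in every silenced library (log2 fold change -1.05 ± 0.16, adjusted p 1.9e-05), with a change of -0.55 in replicates 1 and 2 and -1.46 in replicates 3 and 4. The linear-chain deubiquitinase Otulin (-0.22) and Cflar, which encodes the caspase-8 inhibitor cFLIP (-0.59), also fell. Traf3 lost its call without control replicate 1 or silenced replicate 4 (log2 fold change 0.34). Cflar lost its call without control replicate 1 or 2 or silenced replicate 3 or 4 (log2 fold change -0.56 to -0.49). Otulin lost its call without control replicate 2, 3 or 4 or silenced replicate 2, 3 or 4 (log2 fold change -0.24 to -0.18). The receptor complex counts were 4 higher and 4 lower with the replicate number as a block, 2 and 3 in the fit of the 2 groups alone, and 2 to 3 and 1 to 4 without 1 library.

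NF-kB subunits and their feedback inhibitors showed 1 rise and 1 fall among 16 genes (median 0.10), near the shares over all genes. Tnfaip3 (A20), the ubiquitin-editing feedback inhibitor, was at 111, 119, 141 and 141 CPM in si-control + TNF and 193, 203, 268 and 279.6 CPM in si-dnmt + TNF (log2 fold change 0.88 ± 0.17, adjusted p 0.00044). The groups did not overlap. Rel (c-Rel) fell (log2 fold change -0.47 ± 0.15, adjusted p 0.027), while Rela (0.05), Nfkb1 (0.06), Nfkb2 (0.07) and the inhibitor Nfkbia (0.12) were not called. Ikbke, an IKK-related kinase counted here with nucleic acid sensing, was at 70.5, 79.3, 71.9 and 76.0 CPM in si-control + TNF and 137, 154, 164 and 164 CPM in si-dnmt + TNF. Each silenced library lay well above each control library (log2 fold change 1.06 ± 0.08, adjusted p 2.8e-10). Rel lost its call without control replicate 3 or silenced replicate 2 or 3 (log2 fold change -0.44 to -0.39). The NF-kB counts were 3 higher and 1 lower with the replicate number as a block, 2 and 1 in the fit of the 2 groups alone, and 1 to 2 and 0 to 1 without 1 library.

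Adhesion molecules, which hold leukocytes to activated endothelium, were higher in 2 of 15 genes and lower in 1 (median 0.19). These counts were near the shares over all genes, 10.4% higher and 9.59% lower. Selp (P-selectin) was at 345, 387, 258 and 256 CPM in si-control + TNF and 565, 533, 695 and 696 CPM in si-dnmt + TNF, without overlap (log2 fold change 1.00 ± 0.22, adjusted p 0.0016). Its rise was 0.58 in replicates 1 and 2 and 1.44 in replicates 3 and 4. Icam1 was at 671, 743, 489 and 539 CPM in si-control + TNF and 1024, 994, 901 and 954 CPM in si-dnmt + TNF (log2 fold change 0.67 ± 0.22, adjusted p 0.029), again without overlap. Vcam1, already at 801 ± 45.9 CPM in control cells, was at 955 ± 53.4 CPM (log2 fold change 0.25 ± 0.11, adjusted p 0.10), and Sele (E-selectin) at 111, 109, 57.0 and 51.0 CPM in si-control + TNF and 152, 136, 111 and 124 CPM in si-dnmt + TNF (log2 fold change 0.67 ± 0.24, adjusted p 0.0502). Neither of these passed, though all silenced libraries were above all control libraries. Jam3, a junctional adhesion molecule, fell (log2 fold change -1.29 ± 0.39, adjusted p 0.019). Pecam1 was at 978 ± 190.4 and 902 ± 102 CPM (log2 fold change -0.12 ± 0.17, adjusted p 0.69). Icam1 lost its call without control replicate 3 or 4 or silenced replicate 1, 2 or 4 (log2 fold change 0.57 to 0.67). Jam3 lost its call without control replicate 1 or 2 or silenced replicate 3 or 4 (log2 fold change -1.12 to -1.06). Sele reached the threshold without control replicate 1 (0.85, adjusted p 0.024) or 2 (0.84, adjusted p 0.026). The adhesion counts were 6 higher and 3 lower with the replicate number as a block, 2 and 0 in the fit of the 2 groups alone, and 1 to 3 and 0 to 1 without 1 library.

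Among chemokines, calls were upward only. Of 10 CXC chemokines tested 5 rose, with a median of 0.85. The neutrophil-attracting Cxcl1, Cxcl2 and Cxcl5 were higher, with larger rises in replicates 3 and 4 than in replicates 1 and 2. Cxcl2 was at 23.7, 20.0, 21.2 and 24.0 CPM in si-control + TNF and 37.4, 44.2, 85.9 and 77.8 CPM in si-dnmt + TNF (log2 fold change 1.47 ± 0.43, adjusted p 0.015), and its rise was 0.90 in replicates 1 and 2 against 1.86 in replicates 3 and 4. Cxcl1 (111 ± 16.4 against 273 ± 116 CPM, log2 fold change 1.29 ± 0.42, adjusted p 0.028) rose by 0.53 and 1.88 in these pairs, and Cxcl5 (187 ± 24.5 against 423 ± 191 CPM, log2 fold change 1.18 ± 0.39, adjusted p 0.030) by 0.50 and 1.63. Cxcl9, a ligand of the T-cell chemokine receptor CXCR3, was at 3.78, 4.22, 2.85 and 3.20 CPM in si-control + TNF and 32.2, 31.7, 7.43 and 8.02 CPM in si-dnmt + TNF. Its order between the pairs was the reverse, with a rise of 3.00 in replicates 1 and 2 and of 1.35 in replicates 3 and 4 (log2 fold change 2.50 ± 0.55, adjusted p 0.0016 over all). Cxcl10, the related ligand, was at 283, 349.6, 222 and 241 CPM in si-control + TNF and 363, 339, 241 and 252 CPM in si-dnmt + TNF and was not called (log2 fold change 0.12 ± 0.27, adjusted p 0.80). Cxcl16 rose in all 4 replicates (27.8 ± 2.15 against 46.7 ± 3.65 CPM, log2 fold change 0.75 ± 0.15, adjusted p 0.00066). Cxcl1 and Cxcl5 lost their calls without control replicate 2, 3 or 4 or silenced replicate 3 or 4 (log2 fold change 1.05 to 1.29 and 0.93 to 1.22, in that order). Cxcl2 lost its call without silenced replicate 3 (log2 fold change 1.26). The CXC counts were 7 higher and 0 lower with the replicate number as a block, 5 and 0 in the fit of the 2 groups alone, and 2 to 6 and 0 without 1 library.

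Of 11 CC and CX3C chemokines tested, 3 rose (median 0.90). Cx3cl1 (fractalkine), a membrane-bound chemokine of ECs, was at 69.4, 79.8, 96.7 and 101 CPM in si-control + TNF and 143, 137, 175 and 193 CPM in si-dnmt + TNF (log2 fold change 0.90 ± 0.18, adjusted p 0.00058). Ccl20 was at 20.2, 15.2, 9.21 and 12.1 CPM in si-control + TNF and 56.2, 58.0, 26.6 and 19.7 CPM in si-dnmt + TNF (log2 fold change 1.499 ± 0.37, adjusted p 0.0048), and Ccl12 rose at low levels (0.805 ± 0.377 against 3.30 ± 1.89 CPM, log2 fold change 2.03 ± 0.60, adjusted p 0.017). Cx3cl1 did not overlap between groups. Ccl20 did, since silenced replicate 4 lay just below control replicate 1, but within each pair of replicates its groups were apart. Ccl2, which attracts monocytes, was at 2840.2 ± 380.1 and 3425 ± 437 CPM (log2 fold change 0.27 ± 0.30, adjusted p 0.58). Ccl5 was at 124, 128, 139 and 176 CPM in si-control + TNF and 288, 264, 147 and 104 CPM in si-dnmt + TNF and was not called (log2 fold change 0.50 ± 0.34, adjusted p 0.33): it was 1.13 in replicates 1 and 2 and -0.33 in replicates 3 and 4. Ccl12 lost its call without control replicate 3 or silenced replicate 2 (log2 fold change 1.76 to 1.82). The CC and CX3C counts were 5 higher and 1 lower with the replicate number as a block, 4 and 0 in the fit of the 2 groups alone, and 2 to 4 and 0 without 1 library.

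Of 20 cytokine genes tested 8 were called higher and 1 lower, with a median of 0.93. Csf1 (M-CSF), the macrophage growth factor, was at 1109, 1146, 1571 and 1639.9 CPM in si-control + TNF and 3217, 3472, 4282 and 4411 CPM in si-dnmt + TNF. It was 2.81-fold higher with no overlap (log2 fold change 1.49 ± 0.14, adjusted p 1.5e-08) and had the largest rise in mean CPM of the called genes with a log2 fold change of at least 1. Lif, an interleukin 6 family cytokine, was at 3.35, 2.06, 4.37 and 4.55 CPM in si-control + TNF and 8.61, 10.3, 14.0 and 15.02 CPM in si-dnmt + TNF (log2 fold change 1.74 ± 0.26, adjusted p 2.3e-05). Ebi3 was at 0.258, 0.0469, 0.303 and 0.232 CPM in si-control + TNF and 2.29, 3.94, 2.21 and 1.85 CPM in si-dnmt + TNF (log2 fold change 3.57 ± 0.52, adjusted p 1.3e-05) and Il27 at 0.430, 0.656, 0.173 and 0.511 CPM in si-control + TNF and 2.84, 3.33, 2.08 and 1.44 CPM in si-dnmt + TNF (log2 fold change 2.45 ± 0.37, adjusted p 2.3e-05). These encode the subunits of interleukin 27, and both were higher in every silenced library at levels of a few CPM. Tnf, given above, and Il18 (1.14), Csf2 (1.69) and Flt3l (0.59) also rose. Kitl, which encodes stem cell factor, was the 1 fall (90.1 ± 16.8 against 43.8 ± 14.4 CPM, log2 fold change -1.04 ± 0.28, adjusted p 0.0079). Il6 (0.58, adjusted p 0.63), Il33 (1.03, adjusted p 0.45) and Ifnb1 (0.89, adjusted p 0.43) were not called. Il18 lost its call without control replicate 1 or 2 or silenced replicate 2 (log2 fold change 0.87 to 1.05). Csf2 lost its call without silenced replicate 3 (log2 fold change 1.37). Flt3l lost its call without control replicate 2 or 3 or silenced replicate 2, 3 or 4 (log2 fold change 0.40 to 0.62).

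Co-stimulatory genes were the list with the highest share of rises: 5 of 7 tested genes, none lower, median 1.32. Most encode ligands that give T cells the signal that goes with antigen, while Cd40 encodes a receptor. Icosl, Tnfsf4 and Cd40 were listed with the study's account of the TNF + IFN cultures known, so the count is not independent evidence of a direction. Tnfsf4 (OX40 ligand) was at 10.1, 7.60, 15.7 and 13.7 CPM in si-control + TNF and 45.4, 55.9, 64.1 and 64.1 CPM in si-dnmt + TNF (log2 fold change 2.28 ± 0.21, adjusted p 2.2e-08). Icosl, the ligand of ICOS, was at 1.68, 1.73, 2.25 and 2.83 CPM in si-control + TNF and 6.55, 6.43, 9.55 and 9.15 CPM in si-dnmt + TNF (log2 fold change 1.90 ± 0.36, adjusted p 0.00034), and Cd40 at 1.55, 2.48, 1.21 and 1.16 CPM in si-control + TNF and 5.54, 4.83, 5.40 and 4.68 CPM in si-dnmt + TNF (log2 fold change 1.68 ± 0.30, adjusted p 0.00019). In all of them the lowest silenced library was above the highest control library, and within each pair of replicates the rise was at least 1.37 on the log2 scale. Tnfsf9, which encodes 4-1BB ligand (1.94 ± 0.571 against 3.37 ± 0.669 CPM), and Tnfsf15 (0.319 ± 0.226 against 0.796 ± 0.365 CPM) rose with adjusted p of 0.044 and 0.039. Cd80 (0.75) and Tnfsf18 (0.21) were not called. Tnfsf9 lost its call without control replicate 1, 3 or 4 or silenced replicate 2, 3 or 4 (log2 fold change 0.63 to 0.86). Tnfsf15 lost its call without control replicate 1, 3 or 4 or silenced replicate 1 or 2 (log2 fold change 1.03 to 1.23). The co-stimulation counts were 5 higher and 0 lower with the replicate number as a block, 3 and 0 in the fit of the 2 groups alone, and 3 to 5 and 0 without 1 library.

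Inhibitory ligands were mixed, with 2 higher and 1 lower of 8 tested (median 0.43). Cd274 (PD-L1) was at 51.4, 68.2, 46.9 and 42.9 CPM in si-control + TNF and 92.2, 98.6, 72.9 and 74.1 CPM in si-dnmt + TNF, without overlap (log2 fold change 0.69 ± 0.24, adjusted p 0.040). Tnfrsf14 (HVEM), the ligand of BTLA, rose (2.89 ± 0.450 against 5.11 ± 0.756 CPM, log2 fold change 0.82 ± 0.19, adjusted p 0.0025). Pvr (CD155), the ligand of TIGIT, was at 167, 176, 152 and 149.7 CPM in si-control + TNF and 82.5, 85.4, 69.5 and 66.8 CPM in si-dnmt + TNF and fell (log2 fold change -1.08 ± 0.22, adjusted p 0.00059). Cd274 lost its call without control replicate 1, 3 or 4 or silenced replicate 1 or 2 (log2 fold change 0.61 to 0.68). The inhibitory ligand counts were 4 higher and 2 lower with the replicate number as a block, 3 and 1 in the fit of the 2 groups alone, and 1 to 3 and 1 without 1 library.

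**Figure D3:**
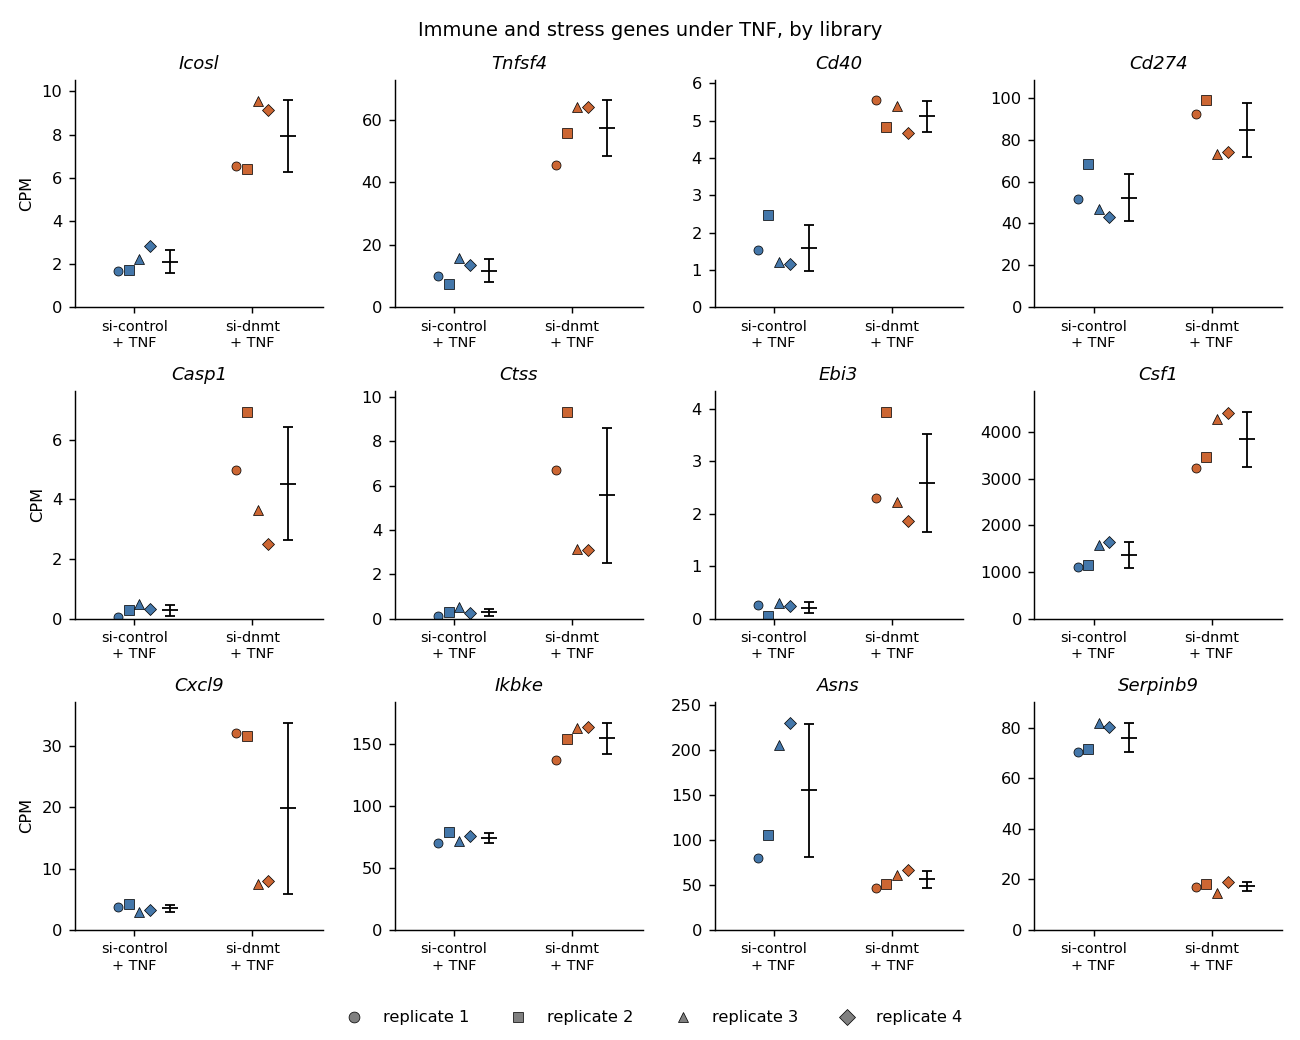
CPM (linear axis from 0) in each library of si-control + TNF (blue) and si-dnmt + TNF (orange) for 12 genes named in the text; symbols mark the replicate number, and the bar is the mean ± SD (n = 4). The silenced libraries lie above the control libraries for Icosl, Tnfsf4, Cd40, Cd274, Casp1, Ctss, Ebi3, Csf1, Cxcl9 and Ikbke and below them for Asns and Serpinb9, with the spread between replicates 1 and 2 and replicates 3 and 4 widest for Cxcl9 and Asns.

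Antigen presentation through MHC class I was called higher in 7 of 22 tested genes and lower in 0, with a median of 0.46. Apart from H2-T22 the calls fell on peptide supply, loading and their regulator: Psmb9, an immunoproteasome subunit (25.7 ± 4.42 against 44.1 ± 11.9 CPM, log2 fold change 0.78 ± 0.18, adjusted p 0.0022), the peptide transporter genes Tap1 (0.55) and Tap2 (0.58), Tapbpl (0.45), the chaperone Calr (843 ± 29.6 against 1158 ± 147 CPM, log2 fold change 0.46 ± 0.10, adjusted p 0.00095) and the class I transactivator Nlrc5 (0.72). The classical heavy chains H2-K1 (0.44) and H2-D1 (0.34) and B2m (0.00) were not called. H2-T22, a non-classical heavy chain whose reads may be shared with close relatives, was at 177, 202, 159 and 168 CPM in si-control + TNF and 346, 371, 236 and 219 CPM in si-dnmt + TNF (log2 fold change 0.73 ± 0.22, adjusted p 0.019). Tap1 and Nlrc5 lost their calls without control replicate 1, 3 or 4 or silenced replicate 1 or 2 (log2 fold change 0.42 to 0.56 and 0.60 to 0.73, in that order). Tap2 lost its call without control replicate 3 or 4 or silenced replicate 1 or 2 (log2 fold change 0.46 to 0.51). Tapbpl lost its call without control replicate 1 or 3 or silenced replicate 1 or 2 (log2 fold change 0.35 to 0.43). H2-T22 lost its call without control replicate 3 or silenced replicate 1 or 2 (log2 fold change 0.60 to 0.69). The MHC class I counts were 14 higher and 0 lower with the replicate number as a block, 4 and 0 in the fit of the 2 groups alone, and 2 to 9 and 0 without 1 library.

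MHC class II genes were at low levels. Of 12 tested 3 rose and 1 fell, with a median of 2.07, the highest of any list in the main fit. This rank depended on the fit. The median was 2.24 in replicates 1 and 2 alone and 0.68 in replicates 3 and 4 alone. It was 2.01 with the replicate number as a block and 0.22 in the fit of the 2 groups alone. The low-count filter, applied over all 32 libraries, kept members barely detected here. H2-DMb2 had a mean of 0 CPM in control and 0.058 CPM in silenced libraries. Ciita, the class II transactivator, was at 0.988, 1.266, 0.173 and 0.0928 CPM in si-control + TNF and 4.17, 4.83, 0.692 and 0.411 CPM in si-dnmt + TNF (log2 fold change 2.01 ± 0.72, adjusted p 0.048), so that control replicates 1 and 2 exceeded silenced replicates 3 and 4. Cd74, the invariant chain, was at 3.78, 3.75, 1.43 and 1.07 CPM in si-control + TNF and 23.03, 19.01, 3.14 and 2.67 CPM in si-dnmt + TNF (log2 fold change 2.25 ± 0.63, adjusted p 0.011) with the same overlap. H2-DMb1 was at 0.172, 0.234, 0 and 0.279 CPM in si-control + TNF and 2.88, 1.74, 0.323 and 0.154 CPM in si-dnmt + TNF. Silenced replicate 4 lay within the control range, and the change was 3.48 in replicates 1 and 2 and 0.83 in replicates 3 and 4 (log2 fold change 2.90 ± 0.80, adjusted p 0.011 over all). H2-Aa (2.85, adjusted p 0.072) and H2-Ab1 (3.08, adjusted p 0.052) were not called. Close paralogs, such as H2-DMb1 and H2-DMb2, can share reads. Rfxap, a subunit of the RFX factor at class II promoters, fell (8.54 ± 1.71 against 5.45 ± 0.526 CPM, log2 fold change -0.65 ± 0.17, adjusted p 0.0068). Ciita lost its call without control replicate 1, 3 or 4 or silenced replicate 1 or 2 (log2 fold change 1.496 to 2.33). Cd74 and H2-DMb1 lost their calls without silenced replicate 1 (log2 fold change 1.72 and 2.11, in that order). The MHC class II counts were 6 higher and 1 lower with the replicate number as a block, 0 and 1 in the fit of the 2 groups alone, and 0 to 5 and 1 without 1 library.

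Antiviral interferon-response genes were mostly not called under TNF. Of 34 tested, 5 were higher and 0 lower, with a median of 0.29 and 29 positive fold changes. Oas2, which makes the 2-5A activator of RNase L, was at 29.1, 38.0, 49.1 and 42.4 CPM in si-control + TNF and 90.9, 97.8, 73.6 and 77.5 CPM in si-dnmt + TNF (log2 fold change 1.099 ± 0.28, adjusted p 0.0064). Herc6, the mouse ISG15 ligase, was at 96.2, 94.7, 102 and 84.8 CPM in si-control + TNF and 171, 169, 150.2 and 151 CPM in si-dnmt + TNF (log2 fold change 0.77 ± 0.18, adjusted p 0.0024). Both were without overlap, as was Socs1, an inhibitor of JAK kinases (3.42 ± 0.718 against 7.43 ± 0.801 CPM, log2 fold change 1.12 ± 0.26, adjusted p 0.0029). Oas1a (0.61) and Oasl1 (0.69) rose, while Isg15 (0.30), Ifit1 (-0.08) and Mx1 (0.80, adjusted p 0.22) were not called. Oas1a lost its call without control replicate 1 or silenced replicate 2 (log2 fold change 0.51 to 0.55). Oasl1 lost its call without control replicate 1, 3 or 4 or silenced replicate 2 or 4 (log2 fold change 0.62 to 0.70). The antiviral counts were 12 higher and 0 lower with the replicate number as a block, 9 and 0 in the fit of the 2 groups alone, and 3 to 5 and 0 without 1 library.

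Interferon-inducible GTPases showed 2 rises and 1 fall among 17 genes (median 0.01), near or below the shares over all genes (10.4% higher and 9.59% lower). Gbp8 (4.78 ± 1.16 against 9.38 ± 2.36 CPM, log2 fold change 0.97 ± 0.22, adjusted p 0.0020) and Gbp7 (259 ± 52.4 against 351 ± 64.2 CPM, log2 fold change 0.44 ± 0.15, adjusted p 0.038) rose and Gbp6 (146 ± 27.7 against 79.0 ± 25.9 CPM, log2 fold change -0.89 ± 0.26, adjusted p 0.017) fell. These genes are close paralogs in clusters, and reads could have been divided between them by the counting. Gbp6 lost its call without control replicate 2 or silenced replicate 3 or 4 (log2 fold change -0.76 to -0.75). Gbp7 lost its call without control replicate 3 or 4 or silenced replicate 1 or 2 (log2 fold change 0.34 to 0.39). Nucleic acid sensing had 2 rises among 15 genes, Ikbke and the transcription factor Irf3 (19.9 ± 2.74 against 26.0 ± 1.59 CPM, log2 fold change 0.38 ± 0.11, adjusted p 0.014), and a median of 0.20. That count too was near the share over all genes. Neither the RNA sensors Ddx58 (0.14) and Ifih1 (0.32) nor the DNA sensor Mb21d1, which encodes cGAS (0.12), were called. Irf3 lost its call without control replicate 4 (log2 fold change 0.32). The GTPase counts were 2 higher and 4 lower with the replicate number as a block, 1 and 2 in the fit of the 2 groups alone, and 1 to 2 and 0 to 1 without 1 library. The nucleic acid sensing counts were 5 higher and 0 lower with the replicate number as a block, 1 and 0 in the fit of the 2 groups alone, and 1 to 2 and 0 without 1 library.

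Inflammasome and pyroptosis genes included some of the largest rises, with 4 of 14 higher and 1 lower (median 0.26). Casp1, the protease that matures interleukin 1 beta and interleukin 18, was at 0.0430, 0.281, 0.476 and 0.325 CPM in si-control + TNF and 4.99, 6.95, 3.64 and 2.52 CPM in si-dnmt + TNF. Every silenced library was several times above the highest control library (log2 fold change 3.99 ± 0.37, adjusted p 2.2e-08). The rise was 5.19 in replicates 1 and 2 and 2.93 in replicates 3 and 4. Aim2, a sensor of cytosolic DNA, was at 9.45, 7.69, 10.6 and 7.98 CPM in si-control + TNF and 15.9, 15.3, 15.04 and 15.5 CPM in si-dnmt + TNF (log2 fold change 0.79 ± 0.10, adjusted p 2.9e-06). Nlrp3, a sensor of cell stress, was at 2.45, 2.34, 2.16 and 2.27 CPM in si-control + TNF and 4.62, 4.27, 7.24 and 6.12 CPM in si-dnmt + TNF (log2 fold change 1.267 ± 0.33, adjusted p 0.0061). P2rx7, the ATP-gated channel upstream of it, was at 0.301, 0.0469, 0.433 and 0.511 CPM in si-control + TNF and 0.778, 2.16, 4.98 and 6.38 CPM in si-dnmt + TNF (log2 fold change 3.44 ± 0.71, adjusted p 0.00088). None of these overlapped between groups, though P2rx7 spanned a wide range among silenced libraries. Casp12 fell (93.1 ± 17.9 against 56.2 ± 14.4 CPM, log2 fold change -0.73 ± 0.19, adjusted p 0.0069), and the executor Gsdmd (0.09) was not called. These counts were the same without any 1 library.

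Cathepsins and serpins were called higher in 4 and lower in 1 of 17 genes (median 0.11). Ctss, the lysosomal protease that trims the class II invariant chain, was at 0.129, 0.281, 0.519 and 0.232 CPM in si-control + TNF and 6.68, 9.34, 3.14 and 3.09 CPM in si-dnmt + TNF. After Glipr1 it was the largest fitted rise of the 15, and no silenced library came near the control range (log2 fold change 4.23 ± 0.57, adjusted p 4.5e-06). Its rise was 5.27 in replicates 1 and 2 and 3.01 in replicates 3 and 4. Ctsz (182 ± 18.4 against 264 ± 21.4 CPM, log2 fold change 0.54 ± 0.10, adjusted p 0.00016), Ctsf (1.52 ± 0.196 against 2.81 ± 0.349 CPM, log2 fold change 0.89 ± 0.21, adjusted p 0.0030) and Ctso (21.8 ± 1.41 against 28.0 ± 2.56 CPM, log2 fold change 0.37 ± 0.09, adjusted p 0.0032) rose by less, and the fall was that of Serpinb9, given above. The abundant cathepsins Ctsb (0.10), Ctsd (-0.02) and Ctsl (0.26) were not called.

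The upstream sequences of Icosl, Casp1 and Ctss are shown side by side, again with each CG in capitals, because these 3 immune genes rose by 1.90 or more on the log2 scale from low levels and differ in CpG content. All are 250 bases before the RefSeq start in GRCm38.p6, written 5′ to 3′. The Icosl sequence (chr10:78069118-78069367, plus strand) held 23 CG, above the upper quartile of 16 over all windows. Those of Casp1 (chr9:5298267-5298516, plus strand) and Ctss (chr3:95526536-95526785, plus strand) held 1 and 4, below the median of 6. Whether any of these CpGs was methylated in these cells was not measured.
Icosl: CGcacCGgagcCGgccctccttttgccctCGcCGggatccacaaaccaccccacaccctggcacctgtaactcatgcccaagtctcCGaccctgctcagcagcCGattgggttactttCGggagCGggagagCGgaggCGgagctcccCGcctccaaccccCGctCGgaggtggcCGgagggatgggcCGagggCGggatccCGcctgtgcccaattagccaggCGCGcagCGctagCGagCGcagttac
Casp1: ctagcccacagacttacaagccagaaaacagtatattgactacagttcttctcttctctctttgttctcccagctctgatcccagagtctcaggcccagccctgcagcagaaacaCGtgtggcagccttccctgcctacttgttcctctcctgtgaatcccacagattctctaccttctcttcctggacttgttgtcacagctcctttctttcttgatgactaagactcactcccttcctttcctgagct
Ctss: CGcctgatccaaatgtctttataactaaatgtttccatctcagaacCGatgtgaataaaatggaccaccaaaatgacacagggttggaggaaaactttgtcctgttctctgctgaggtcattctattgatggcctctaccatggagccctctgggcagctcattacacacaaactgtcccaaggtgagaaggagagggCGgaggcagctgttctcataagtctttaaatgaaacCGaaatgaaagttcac
The core of the interferon-stimulated response element was searched on both strands of the same 250 bases and was found in 2.98% of all windows. The Ctss sequence held 1 such match and the Icosl and Casp1 sequences held 0.

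Apoptosis and necroptosis genes were higher in 6 and lower in 2 of 18 (median 0.25). The pore-forming effectors Bak1 and Bax both rose. Bak1 was at 86.8, 87.7, 86.3 and 100.2 CPM in si-control + TNF and 126, 141, 138 and 138 CPM in si-dnmt + TNF (log2 fold change 0.59 ± 0.07, adjusted p 2.0e-06), and Bax at 79.2, 69.3, 52.6 and 63.1 CPM in si-control + TNF and 106, 105, 112 and 87.3 CPM in si-dnmt + TNF (log2 fold change 0.64 ± 0.13, adjusted p 0.00070). Neither gene overlapped between groups. The initiator caspase Casp8 (39.1 ± 4.00 against 54.8 ± 2.51 CPM, log2 fold change 0.48 ± 0.11, adjusted p 0.0015), and the death receptors Tnfrsf10b (149.8 ± 6.43 against 208 ± 20.1 CPM, log2 fold change 0.47 ± 0.12, adjusted p 0.0057) and Fas (24.1 ± 6.68 against 39.2 ± 12.8 CPM, log2 fold change 0.70 ± 0.23, adjusted p 0.027) rose. The caspase inhibitor Xiap (172 ± 35.9 against 100.2 ± 38.7 CPM, log2 fold change -0.78 ± 0.26, adjusted p 0.032) and the BH3-only gene Bid (92.8 ± 9.17 against 69.7 ± 1.97 CPM, log2 fold change -0.41 ± 0.15, adjusted p 0.045) fell. Bcl2 (-0.29) and Mcl1 (-0.20) were not called. Fas and Xiap lost their calls without control replicate 1 or 2 or silenced replicate 3 or 4 (log2 fold change 0.54 to 0.60 and -0.72 to -0.61, in that order). Bid lost its call without control replicate 2, 3 or 4 or silenced replicate 1, 2, 3 or 4 (log2 fold change -0.43 to -0.36). The apoptosis counts were 10 higher and 4 lower with the replicate number as a block, 6 and 1 in the fit of the 2 groups alone, and 5 to 7 and 0 to 2 without 1 library.

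Genes that p53 activates rose in 9 of 17 and fell in 0, with a median of 0.58. Cdkn1a (p21), the cyclin-dependent kinase inhibitor, was at 185, 183, 131 and 156 CPM in si-control + TNF and 301, 316, 323 and 309 CPM in si-dnmt + TNF (log2 fold change 0.93 ± 0.15, adjusted p 4.9e-05). Ccng1 (cyclin G1) was at 299.9, 264, 255 and 247 CPM in si-control + TNF and 603, 619, 709 and 697 CPM in si-dnmt + TNF (log2 fold change 1.30 ± 0.14, adjusted p 1.1e-07). Silenced libraries were far above control libraries in both. Ei24 (79.7 ± 14.0 against 142 ± 7.94 CPM, log2 fold change 0.84 ± 0.08, adjusted p 5.3e-08), the bypass polymerase Polk (31.0 ± 2.75 against 54.5 ± 2.59 CPM, log2 fold change 0.81 ± 0.09, adjusted p 4.1e-07), the exonuclease Aen (59.7 ± 3.86 against 106 ± 4.26 CPM, log2 fold change 0.83 ± 0.10, adjusted p 6.7e-07), Zmat3 (0.42), Tigar (0.38), Ddit4l (1.51) and Mdm2, the p53 ubiquitin ligase (191 ± 29.4 against 316 ± 75.3 CPM, log2 fold change 0.73 ± 0.21, adjusted p 0.015), rose. The p53-induced death genes Bbc3 (0.00) and Pmaip1 (0.01) were not called. Mdm2 lost its call without control replicate 1 or silenced replicate 3 or 4 (log2 fold change 0.61 to 0.65).

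Cell cycle genes were called lower in 3 and higher in 1 of 28, with a median of -0.45 and only 2 positive fold changes. These counts were near or below the shares over all genes, 9.59% lower and 10.4% higher. In 12 of the 28 every silenced library was below every control library, against 11.2% of all genes. In 2 every one was above, against 11.5%. In replicates 1 and 2 alone 6 were lower and 1 higher (median -0.15), and in replicates 3 and 4 alone 23 and 1 (median -0.65). Over all genes these fits called 1917 lower and 2098 higher, and 2839 and 2684, in that order. Ccne1 (cyclin E1), which drives entry into S phase, was the rise, at 10.2, 10.9, 7.66 and 7.38 CPM in si-control + TNF and 22.2, 20.9, 20.0 and 19.6 CPM in si-dnmt + TNF (log2 fold change 1.19 ± 0.16, adjusted p 3.5e-06). The falls were those of the replication clamp Pcna (282 ± 78.6 against 197 ± 45.8 CPM, log2 fold change -0.52 ± 0.17, adjusted p 0.031), the ribonucleotide reductase subunit Rrm2 (82.0 ± 4.92 against 47.6 ± 10.2 CPM, log2 fold change -0.78 ± 0.27, adjusted p 0.043) and the spindle kinase Bub1 (110.2 ± 20.6 against 70.1 ± 7.74 CPM, log2 fold change -0.65 ± 0.23, adjusted p 0.049). Mki67 (-0.63, adjusted p 0.11), Top2a (-0.59, adjusted p 0.18) and Cdk1 (-0.56, adjusted p 0.056) did not pass. Bub1 lost its call without control replicate 2, 3 or 4 or silenced replicate 1, 2, 3 or 4 (log2 fold change -0.72 to -0.56). Pcna lost its call without control replicate 1 or 2 or silenced replicate 3 or 4 (log2 fold change -0.45 to -0.35). Rrm2 lost its call without control replicate 1, 2, 3 or 4 or silenced replicate 2, 3 or 4 (log2 fold change -0.83 to -0.67). The cell cycle counts were 1 higher and 10 lower with the replicate number as a block, 1 and 11 in the fit of the 2 groups alone, and 1 and 0 to 3 without 1 library.

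The next list held genes of the unfolded protein response and of the integrated stress response, whose transcription factor is ATF4. Of 12 genes, 5 were lower and 0 higher (median -0.43), and all 5 calls were kept without any 1 library. Atf4 was at 379, 445, 559 and 654 CPM in si-control + TNF and 256, 282, 199 and 206 CPM in si-dnmt + TNF (log2 fold change -1.11 ± 0.20, adjusted p 0.00021). Asns, asparagine synthetase, was at 79.6, 105, 206 and 231 CPM in si-control + TNF and 46.6, 50.4, 61.2 and 66.8 CPM in si-dnmt + TNF (log2 fold change -1.47 ± 0.24, adjusted p 5.8e-05). Chac1, which degrades glutathione, was at 21.9, 24.4, 69.0 and 93.1 CPM in si-control + TNF and 13.9, 16.9, 17.4 and 15.5 CPM in si-dnmt + TNF (log2 fold change -1.71 ± 0.31, adjusted p 0.00024). The silenced libraries of Asns and Chac1 were close to each other, while control replicates 3 and 4 stood far above control replicates 1 and 2. Trib3, the pseudokinase that feeds back on ATF4, was at 79.9, 88.7, 146 and 184 CPM in si-control + TNF and 53.2, 58.6, 33.9 and 36.4 CPM in si-dnmt + TNF (log2 fold change -1.45 ± 0.29, adjusted p 0.00060). The changes were larger in replicates 3 and 4 than in replicates 1 and 2: -1.58 against -0.62 for Atf4, -1.77 against -0.93 for Asns, -2.30 against -0.59 for Chac1 and -2.23 against -0.59 for Trib3. Herpud1 fell as well (57.5 ± 12.8 against 35.5 ± 3.03 CPM, log2 fold change -0.70 ± 0.13, adjusted p 0.00035). The endoplasmic reticulum chaperones Hspa5 (0.02) and Hsp90b1 (-0.19), Xbp1 (-0.56) and Ddit3 (-0.31), which encodes CHOP, were not called, and neither were Atf3 (0.18) and Sesn2 (0.38), which had positive values.

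The upstream sequences of Asns, Chac1 and Trib3 are shown because these genes fell together with Atf4. Capitals mark TGATGNAA, the C/EBP-ATF type of site that ATF4 dimers are known to bind, searched on both strands. It was found in 3.45% of all windows over the same 250 bases. The Asns sequence (GRCm38.p6, chr6:7693210-7693459, minus strand) held 1 match, which starts 23 bases before the transcription start. The Chac1 sequence (chr2:119350992-119351241, plus strand) held 1, on the reverse strand, 193 bases before the start. The Trib3 sequence (chr2:152344061-152344310, minus strand) held 0, which says only that these letters are not in this window. Over the 12 genes of the list, Herpud1, which also fell, and Atf3, which was not called, held 1 match each as well, and the windows of Atf4 and of the other uncalled genes held 0.
Asns: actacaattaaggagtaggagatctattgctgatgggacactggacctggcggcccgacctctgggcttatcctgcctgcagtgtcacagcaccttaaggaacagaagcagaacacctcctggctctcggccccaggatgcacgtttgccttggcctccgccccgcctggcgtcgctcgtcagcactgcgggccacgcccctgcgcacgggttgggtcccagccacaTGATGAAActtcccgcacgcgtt
Chac1: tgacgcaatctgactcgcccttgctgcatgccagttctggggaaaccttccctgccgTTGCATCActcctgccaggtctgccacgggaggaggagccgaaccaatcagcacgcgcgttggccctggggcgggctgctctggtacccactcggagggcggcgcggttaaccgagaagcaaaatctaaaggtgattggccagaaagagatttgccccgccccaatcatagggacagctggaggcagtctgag
Trib3: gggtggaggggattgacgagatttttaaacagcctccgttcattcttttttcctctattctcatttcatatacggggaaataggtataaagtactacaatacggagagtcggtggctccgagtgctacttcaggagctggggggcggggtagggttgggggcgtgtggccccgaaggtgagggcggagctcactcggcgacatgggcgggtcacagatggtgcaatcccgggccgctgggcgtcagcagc

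Sterol synthesis genes were called lower in 5 of 20 and higher in 0, with a median of -0.76 and 1 positive fold change. Hmgcs1, which makes HMG-CoA, was at 183, 202, 57.7 and 58.8 CPM in si-control + TNF and 46.2, 46.9, 16.5 and 17.1 CPM in si-dnmt + TNF (log2 fold change -1.98 ± 0.46, adjusted p 0.0025). Control replicates 3 and 4 were near silenced replicates 1 and 2, but within each pair of replicates the groups were apart (-2.05 and -1.80). Sqle (77.1 ± 40.1 against 41.9 ± 12.9 CPM, log2 fold change -0.88 ± 0.31, adjusted p 0.045) and Fdft1 (64.1 ± 30.1 against 33.4 ± 10.3 CPM, log2 fold change -0.94 ± 0.30, adjusted p 0.024) fell. Vldlr, a lipoprotein receptor, was at 11.9, 12.9, 40.5 and 39.2 CPM in si-control + TNF and 4.07, 3.75, 7.80 and 7.82 CPM in si-dnmt + TNF (log2 fold change -2.16 ± 0.54, adjusted p 0.0051). Sqle lost its call without control replicate 1 or 2 or silenced replicate 1, 3 or 4 (log2 fold change -0.96 to -0.63). Fdft1 lost its call without control replicate 1 or 2 or silenced replicate 3 or 4 (log2 fold change -0.83 to -0.72). The sterol counts were 0 higher and 16 lower with the replicate number as a block, 0 and 2 in the fit of the 2 groups alone, and 0 and 2 to 6 without 1 library.

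Among 13 hypoxia and glycolysis genes 3 fell and 0 rose (median -0.45). These were Ndrg1 (62.4 ± 14.5 against 31.3 ± 1.93 CPM, log2 fold change -0.996 ± 0.28, adjusted p 0.010), Pgk1 (1742 ± 404 against 1201 ± 144 CPM, log2 fold change -0.54 ± 0.14, adjusted p 0.0067) and Aldoa (916 ± 75.2 against 748 ± 40.1 CPM, log2 fold change -0.29 ± 0.10, adjusted p 0.042). Pgk1 lost its call without control replicate 2 (log2 fold change -0.39). Aldoa lost its call without control replicate 2 or 4 or silenced replicate 1, 2, 3 or 4 (log2 fold change -0.31 to -0.25). The hypoxia counts were 1 higher and 9 lower with the replicate number as a block, 1 and 3 in the fit of the 2 groups alone, and 0 and 2 to 5 without 1 library. Of 15 antioxidant genes that NRF2 activates, 2 rose and 1 fell (median 0.31). Hmox1 (heme oxygenase) was at 196, 222, 383 and 490.1 CPM in si-control + TNF and 352, 414, 927 and 953 CPM in si-dnmt + TNF (log2 fold change 1.03 ± 0.37, adjusted p 0.049). Cat (catalase) was at 86.7, 90.8, 172 and 181 CPM in si-control + TNF and 151, 182, 347 and 381 CPM in si-dnmt + TNF (log2 fold change 1.00 ± 0.32, adjusted p 0.027), and the cystine importer Slc7a11 at 288, 304, 989 and 944 CPM in si-control + TNF and 162, 179, 342 and 381 CPM in si-dnmt + TNF (log2 fold change -1.25 ± 0.43, adjusted p 0.041). For all of them the groups overlapped over the 4 replicates and were apart within each pair of replicates. Hmox1 lost its call without control replicate 1, 2 or 3 or silenced replicate 3 or 4 (log2 fold change 0.81 to 1.13). Slc7a11 lost its call without control replicate 3 or 4 or silenced replicate 1, 2 or 3 (log2 fold change -1.39 to -0.95). Cat lost its call without control replicate 1 or 2 or silenced replicate 3 or 4 (log2 fold change 0.77 to 0.85). The antioxidant counts were 9 higher and 1 lower with the replicate number as a block, 0 and 0 in the fit of the 2 groups alone, and 0 to 3 and 0 to 1 without 1 library. NADPH oxidase genes had 2 rises and 0 falls among 9 (median 0.25). Nox1 was at 4.38, 4.31, 0.692 and 0.279 CPM in si-control + TNF and 22.7, 26.6, 6.92 and 7.51 CPM in si-dnmt + TNF (log2 fold change 2.72 ± 0.55, adjusted p 0.00064), with control replicates 1 and 2 just below silenced replicates 3 and 4. Nox4 (-0.20) was not called. The oxidase counts were 2 higher and 0 lower with the replicate number as a block, 1 and 0 in the fit of the 2 groups alone, and 1 to 2 and 0 without 1 library.

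Calls in endothelial identity over the 4 replicates were near or below the shares over all genes, 10.4% higher and 9.59% lower. Of 25 genes 1 rose and 2 fell, with a median of -0.24 and only 4 positive fold changes. In replicates 1 and 2 alone 2 were higher and 10 lower (median -0.23), and in replicates 3 and 4 alone 1 and 10 (median -0.22). Over all genes these fits called 2098 higher and 1917 lower, and 2684 and 2839, in that order. Cdh5 (VE-cadherin) was at 1347, 1583, 1071 and 1078 CPM in si-control + TNF and 1329, 1412, 991 and 1121 CPM in si-dnmt + TNF (log2 fold change -0.07 ± 0.23, adjusted p 0.88). Without control replicate 2 or silenced replicate 3 its fold change was 0.057 and 0.02. Eng (endoglin), a TGF-beta co-receptor, was at 479.6, 589, 546 and 568 CPM in si-control + TNF and 855, 875, 799.9 and 935 CPM in si-dnmt + TNF (log2 fold change 0.67 ± 0.17, adjusted p 0.0056). Emcn (endomucin), which keeps leukocytes off resting endothelium, was at 637, 814, 743 and 754 CPM in si-control + TNF and 542, 543, 391 and 408 CPM in si-dnmt + TNF (log2 fold change -0.65 ± 0.14, adjusted p 0.0017). Nos3, the endothelial nitric oxide synthase, was at 154, 181, 185 and 209 CPM in si-control + TNF and 124, 147, 98.9 and 119 CPM in si-dnmt + TNF (log2 fold change -0.58 ± 0.12, adjusted p 0.0012). None of these calls depended on 1 library. Cldn5 (-1.16, adjusted p 0.41), Tek (-0.57, adjusted p 0.23) and Sox17 (-0.85, adjusted p 0.34) were not called. The endothelial identity counts were 1 higher and 8 lower with the replicate number as a block, 1 and 2 in the fit of the 2 groups alone, and 1 and 2 without 1 library.

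Genes of lung capillary ECs were lower in 3 and higher in 0 of 13 tested (median -0.92). Aqp1, the water channel of capillaries, was at 10.4, 10.8, 3.59 and 3.71 CPM in si-control + TNF and 1.65, 1.31, 0.461 and 0.617 CPM in si-dnmt + TNF (log2 fold change -2.80 ± 0.56, adjusted p 0.00059), -2.83 in replicates 1 and 2 and -2.76 in replicates 3 and 4. The receptor tyrosine kinase Kit (70.0 ± 35.7 against 24.6 ± 17.5 CPM, log2 fold change -1.51 ± 0.54, adjusted p 0.049) and the adrenomedullin receptor Calcrl (99.8 ± 54.8 against 44.5 ± 22.2 CPM, log2 fold change -1.17 ± 0.39, adjusted p 0.034) fell. Kit and Calcrl lost their calls without control replicate 1 or 2 or silenced replicate 3 or 4 (log2 fold change -1.32 to -1.23 and -0.997 to -0.85, in that order). Of 17 arterial and Notch genes, 4 fell and 2 rose (median -0.37). Notch1 was at 119.7, 152, 136 and 132 CPM in si-control + TNF and 92.8, 96.0, 71.9 and 83.7 CPM in si-dnmt + TNF (log2 fold change -0.65 ± 0.12, adjusted p 0.00019). Its ligands Dll1 (4.52 ± 0.948 against 10.9 ± 1.04 CPM, log2 fold change 1.273 ± 0.22, adjusted p 0.00016) and Jag1 (164 ± 6.08 against 227 ± 31.8 CPM, log2 fold change 0.47 ± 0.14, adjusted p 0.017) rose, and its target Nrarp (9.36 ± 5.50 against 3.72 ± 2.00 CPM, log2 fold change -1.32 ± 0.39, adjusted p 0.017) fell. Cxcr4, the CXCL12 receptor, was at 20.1, 22.6, 4.84 and 2.74 CPM in si-control + TNF and 1.14, 3.10, 0.507 and 0.514 CPM in si-dnmt + TNF (log2 fold change -3.25 ± 0.69, adjusted p 0.0011), so that silenced replicate 2 reached above control replicate 4, and the tyrosine kinase Bmx fell (7.95 ± 5.23 against 3.02 ± 2.30 CPM, log2 fold change -1.39 ± 0.48, adjusted p 0.042). Jag1 lost its call without silenced replicate 1 or 2 (log2 fold change 0.41 to 0.42). Nrarp lost its call without control replicate 2 or silenced replicate 3 or 4 (log2 fold change -1.17 to -0.90). Bmx lost its call without control replicate 1 or 2 or silenced replicate 3 or 4 (log2 fold change -1.24 to -0.95). The lung capillary counts were 0 higher and 7 lower with the replicate number as a block, 0 and 1 in the fit of the 2 groups alone, and 0 and 1 to 5 without 1 library. The arterial counts were 4 higher and 8 lower with the replicate number as a block, 2 and 2 in the fit of the 2 groups alone, and 1 to 2 and 2 to 6 without 1 library.

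Of 8 vein and venule genes, 1 rose (Selp) and 2 fell, with a median of -0.30. The falls were those of the venous transcription factor Nr2f2 (71.2 ± 14.9 against 37.4 ± 15.8 CPM, log2 fold change -0.93 ± 0.25, adjusted p 0.0096) and of Nrp2 (1178 ± 199.7 against 918 ± 50.9 CPM, log2 fold change -0.36 ± 0.10, adjusted p 0.0099). Nr2f2 lost its call without silenced replicate 3 (log2 fold change -0.76). Nrp2 lost its call without control replicate 3 (log2 fold change -0.27). Sprouting angiogenesis genes fell in 6 and rose in 3 of 18 (median -0.17). Pgf, placental growth factor, was at 53.03, 59.6, 22.2 and 22.9 CPM in si-control + TNF and 9.25, 12.1, 8.07 and 6.74 CPM in si-dnmt + TNF (log2 fold change -2.12 ± 0.41, adjusted p 0.00045). Nrp1, a VEGF co-receptor (61.7 ± 19.5 against 33.1 ± 6.55 CPM, log2 fold change -0.90 ± 0.25, adjusted p 0.010), the tip-cell gene Esm1 (16.9 ± 6.79 against 8.18 ± 0.494 CPM, log2 fold change -1.05 ± 0.26, adjusted p 0.0047), the semaphorin receptor Plxnd1 (341 ± 89.1 against 193 ± 42.7 CPM, log2 fold change -0.82 ± 0.24, adjusted p 0.016) and Vegfa (23.6 ± 13.1 against 10.1 ± 4.86 CPM, log2 fold change -1.23 ± 0.37, adjusted p 0.017) fell, as did Nrp2, which is also on this list. Plaur, the urokinase receptor (90.9 ± 11.5 against 160.0 ± 33.1 CPM, log2 fold change 0.82 ± 0.18, adjusted p 0.0014), Angpt1 (1.62 ± 0.195 against 3.18 ± 0.582 CPM, log2 fold change 0.97 ± 0.27, adjusted p 0.0098) and Vegfc (7.26 ± 3.98 against 13.6 ± 4.21 CPM, log2 fold change 0.91 ± 0.32, adjusted p 0.047) rose. The VEGF receptors Kdr (0.15) and Flt1 (-0.06) were not called. Vegfa lost its call without control replicate 3 or 4 or silenced replicate 1 or 2 (log2 fold change -1.06 to -0.95). Vegfc lost its call without control replicate 1 or 2 or silenced replicate 3 or 4 (log2 fold change 0.69 to 0.81). Plxnd1 lost its call without control replicate 2 or silenced replicate 3 or 4 (log2 fold change -0.77 to -0.65). The sprouting counts were 3 higher and 6 lower with the replicate number as a block, 2 and 4 in the fit of the 2 groups alone, and 2 to 3 and 4 to 6 without 1 library. The venous counts were 1 higher and 4 lower with the replicate number as a block, 1 and 0 in the fit of the 2 groups alone, and 1 and 1 to 2 without 1 library.

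Coagulation and fibrinolysis genes were higher in 3 and lower in 1 of 15 (median -0.06), counting Plaur. Procr, the endothelial protein C receptor, was at 613, 579, 828 and 917 CPM in si-control + TNF and 975, 1011, 1162 and 1174 CPM in si-dnmt + TNF (log2 fold change 0.56 ± 0.13, adjusted p 0.0036), and Serpine2 fell (6.12 ± 2.73 against 2.80 ± 0.352 CPM, log2 fold change -1.12 ± 0.30, adjusted p 0.0085). Complement genes rose in 2 of 13 (median 0.17): Cd55, which limits complement on the cell surface (131 ± 10.0 against 180.0 ± 28.5 CPM, log2 fold change 0.46 ± 0.12, adjusted p 0.0068), and the receptor C3ar1 (3.54 ± 1.30 against 6.93 ± 1.29 CPM, log2 fold change 0.97 ± 0.28, adjusted p 0.013). The complement count was near the share called higher over all genes, 10.4%. Vascular tone genes had 1 rise and 4 falls among 19 (median -0.08). Ptgds, the prostaglandin D synthase, was at 14.1, 16.5, 6.23 and 5.85 CPM in si-control + TNF and 3.07, 2.91, 0.784 and 0.668 CPM in si-dnmt + TNF (log2 fold change -2.51 ± 0.65, adjusted p 0.0063), and the neuropeptide gene Calcb (1.85 ± 1.01 against 0.503 ± 0.333 CPM, log2 fold change -1.86 ± 0.52, adjusted p 0.012), Calcrl and Nos3 fell as well. Gch1, which makes the cofactor of nitric oxide synthase, rose (72.5 ± 3.71 against 92.2 ± 1.42 CPM, log2 fold change 0.35 ± 0.12, adjusted p 0.041). Serpine2 lost its call without control replicate 2 (log2 fold change -0.86). C3ar1 lost its call without control replicate 4 or silenced replicate 4 (log2 fold change 0.80 to 0.85). Calcb lost its call without control replicate 3 or silenced replicate 4 (log2 fold change -1.57 to -1.49). Gch1 lost its call without control replicate 1, 2, 3 or 4 or silenced replicate 1, 2, 3 or 4 (log2 fold change 0.31 to 0.37). The coagulation counts were 6 higher and 2 lower with the replicate number as a block, 3 and 1 in the fit of the 2 groups alone, and 2 to 4 and 1 to 2 without 1 library. The complement counts were 4 higher and 1 lower with the replicate number as a block, 2 and 0 in the fit of the 2 groups alone, and 1 to 3 and 0 without 1 library. The vascular tone counts were 5 higher and 5 lower with the replicate number as a block, 2 and 2 in the fit of the 2 groups alone, and 0 to 1 and 2 to 4 without 1 library.

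Extracellular matrix genes rose in 5 of 25 and fell in 0 (median 0.14). Thbs1 (thrombospondin 1), an angiogenesis inhibitor, was at 864, 881, 1062 and 1068 CPM in si-control + TNF and 1780.2, 1729.8, 2574 and 2775 CPM in si-dnmt + TNF (log2 fold change 1.19 ± 0.20, adjusted p 6.9e-05). Lamc1, a laminin chain of basement membrane, was at 758, 854, 1003 and 962 CPM in si-control + TNF and 1285, 1354, 1479.9 and 1567 CPM in si-dnmt + TNF (log2 fold change 0.67 ± 0.09, adjusted p 5.1e-06), and fibrillin 1, Fbn1, at 7.91, 8.81, 14.6 and 11.3 CPM in si-control + TNF and 20.0, 22.7, 32.5 and 31.9 CPM in si-dnmt + TNF (log2 fold change 1.33 ± 0.32, adjusted p 0.0039). None of these overlapped. Col6a3 (0.101 ± 0.0657 against 0.401 ± 0.229 CPM, log2 fold change 1.94 ± 0.63, adjusted p 0.028) and Col1a1 (0.0898 ± 0.0802 against 0.991 ± 0.915 CPM, log2 fold change 3.38 ± 1.22, adjusted p 0.049) rose at low levels, and Col1a1 was the called member of the fibroblast markers. Eln (elastin), named above among the largest falls and not on this list, fell (2.13 ± 0.105 against 0.460 ± 0.0905 CPM, log2 fold change -2.19 ± 0.52, adjusted p 0.0033). Col6a3 lost its call without control replicate 1 or 2 or silenced replicate 3 (log2 fold change 1.46 to 1.72). Col1a1 lost its call without control replicate 1, 2, 3 or 4 or silenced replicate 3 or 4 (log2 fold change 2.68 to 3.90). Matrix proteases and inhibitors fell in 4 and rose in 2 of 17 (median -0.10). Mmp2, a gelatinase, was at 185, 206, 161 and 169 CPM in si-control + TNF and 85.8, 78.2, 43.5 and 52.3 CPM in si-dnmt + TNF (log2 fold change -1.47 ± 0.15, adjusted p 1.1e-07). Mmp13 was at 7.13, 7.64, 9.34 and 7.43 CPM in si-control + TNF and 2.01, 2.58, 1.80 and 2.31 CPM in si-dnmt + TNF (log2 fold change -1.86 ± 0.30, adjusted p 4.7e-05), and Mmp3, a stromelysin, at 1.98, 2.30, 1.43 and 0.557 CPM in si-control + TNF and 0.412, 0.0469, 0.0922 and 0.0514 CPM in si-dnmt + TNF (log2 fold change -3.31 ± 0.62, adjusted p 0.00032). All of them were below the control range in every silenced library. Adamts1 (-0.97) fell, while Mmp15 (0.98) and Timp3 (0.47) rose. Mmp15 lost its call without control replicate 3 or 4 or silenced replicate 2 (log2 fold change 0.74 to 0.78). Adamts1 lost its call without control replicate 1 or 2 or silenced replicate 1, 2, 3 or 4 (log2 fold change -1.09 to -0.71). Timp3 lost its call without control replicate 1 or 2 or silenced replicate 1, 3 or 4 (log2 fold change 0.34 to 0.48). The protease counts were 3 higher and 5 lower with the replicate number as a block, 0 and 3 in the fit of the 2 groups alone, and 1 and 3 to 4 without 1 library. The matrix counts were 9 higher and 5 lower with the replicate number as a block, 3 and 0 in the fit of the 2 groups alone, and 3 to 5 and 0 without 1 library.

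TGF-beta and BMP pathway genes fell in 6 and rose in 3 of 29 (median -0.12). Smad5, a BMP effector, was at 125, 128, 114 and 108 CPM in si-control + TNF and 75.7, 70.5, 41.7 and 40.6 CPM in si-dnmt + TNF (log2 fold change -1.05 ± 0.23, adjusted p 0.0013), and Smad1 fell with it (111 ± 16.6 against 75.4 ± 17.0 CPM, log2 fold change -0.55 ± 0.20, adjusted p 0.0496). Smad9 was at 0.859, 0.563, 0.735 and 1.25 CPM in si-control + TNF and 2.01, 2.21, 4.34 and 3.70 CPM in si-dnmt + TNF and rose (log2 fold change 1.84 ± 0.39, adjusted p 0.0012), as did the inhibitory Smad7 (14.3 ± 0.174 against 27.4 ± 5.96 CPM, log2 fold change 0.94 ± 0.26, adjusted p 0.012) and Eng. The BMP antagonist Grem1 was at 1.42, 1.17, 1.43 and 1.53 CPM in si-control + TNF and 0.275, 0.141, 0.231 and 0.103 CPM in si-dnmt + TNF (log2 fold change -2.84 ± 0.40, adjusted p 9.9e-06). All silenced libraries of Smad5 and Grem1 lay below the control range. Bmp4 (-0.38), Bambi (-0.66) and Fst, which binds activin (355 ± 131 against 241 ± 30.0 CPM, log2 fold change -0.56 ± 0.18, adjusted p 0.026), fell. Fst differed by 0.12 in replicates 1 and 2 and by -1.103 in replicates 3 and 4. Smad1 lost its call without control replicate 1, 2 or 3 or silenced replicate 3 or 4 (log2 fold change -0.61 to -0.46). Smad7 lost its call without silenced replicate 4 (log2 fold change 0.80). Bmp4 and Bambi lost their calls without control replicate 1 or 2 or silenced replicate 3 or 4 (log2 fold change -0.35 to -0.25 and -0.59 to -0.51, in that order). Fst lost its call without control replicate 3 or 4 or silenced replicate 3 or 4 (log2 fold change -0.51 to -0.35). The TGF-beta and BMP counts were 6 higher and 10 lower with the replicate number as a block, 3 and 3 in the fit of the 2 groups alone, and 2 to 3 and 2 to 6 without 1 library.

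Among markers of mural cells, Acta2 (smooth muscle actin) was at 10.1, 8.91, 23.1 and 27.8 CPM in si-control + TNF and 86.2, 65.5, 140.1 and 126 CPM in si-dnmt + TNF, without overlap (log2 fold change 2.58 ± 0.54, adjusted p 0.00089). The summed level of the 7 mural markers was 10.3 to 29.0 CPM in control and 66.3 to 143 CPM in silenced libraries, nearly all Acta2. The pericyte gene Pdgfrb (-0.11) and the smooth muscle gene Tagln (-0.76) were not called, and Rgs5 and Cspg4 held 1 to 6 counts over a group. Myh11 (smooth muscle myosin) was at 0.170 ± 0.117 CPM in control and 0.624 ± 0.403 CPM in silenced libraries (1.85, adjusted p 0.096) and did not pass either. Myl9, given above, moved with Acta2, and the part of other cells in these values was not tested. Lymphatic markers summed to 580 to 723 CPM in control and 387 to 595 CPM in silenced libraries. Of these, Reln rose (1.35 ± 1.26 against 5.73 ± 3.11 CPM, log2 fold change 2.08 ± 0.59, adjusted p 0.012), while Lyve1 (-0.50) and Prox1 (-0.57) were not called. None of the 2 epithelial (median 0.26) and 4 leukocyte markers tested (median -0.42) was called. The medians were -0.78 over 3 fibroblast, 0.87 over 4 mural and -0.50 over 5 lymphatic markers tested.

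**Figure D4:**
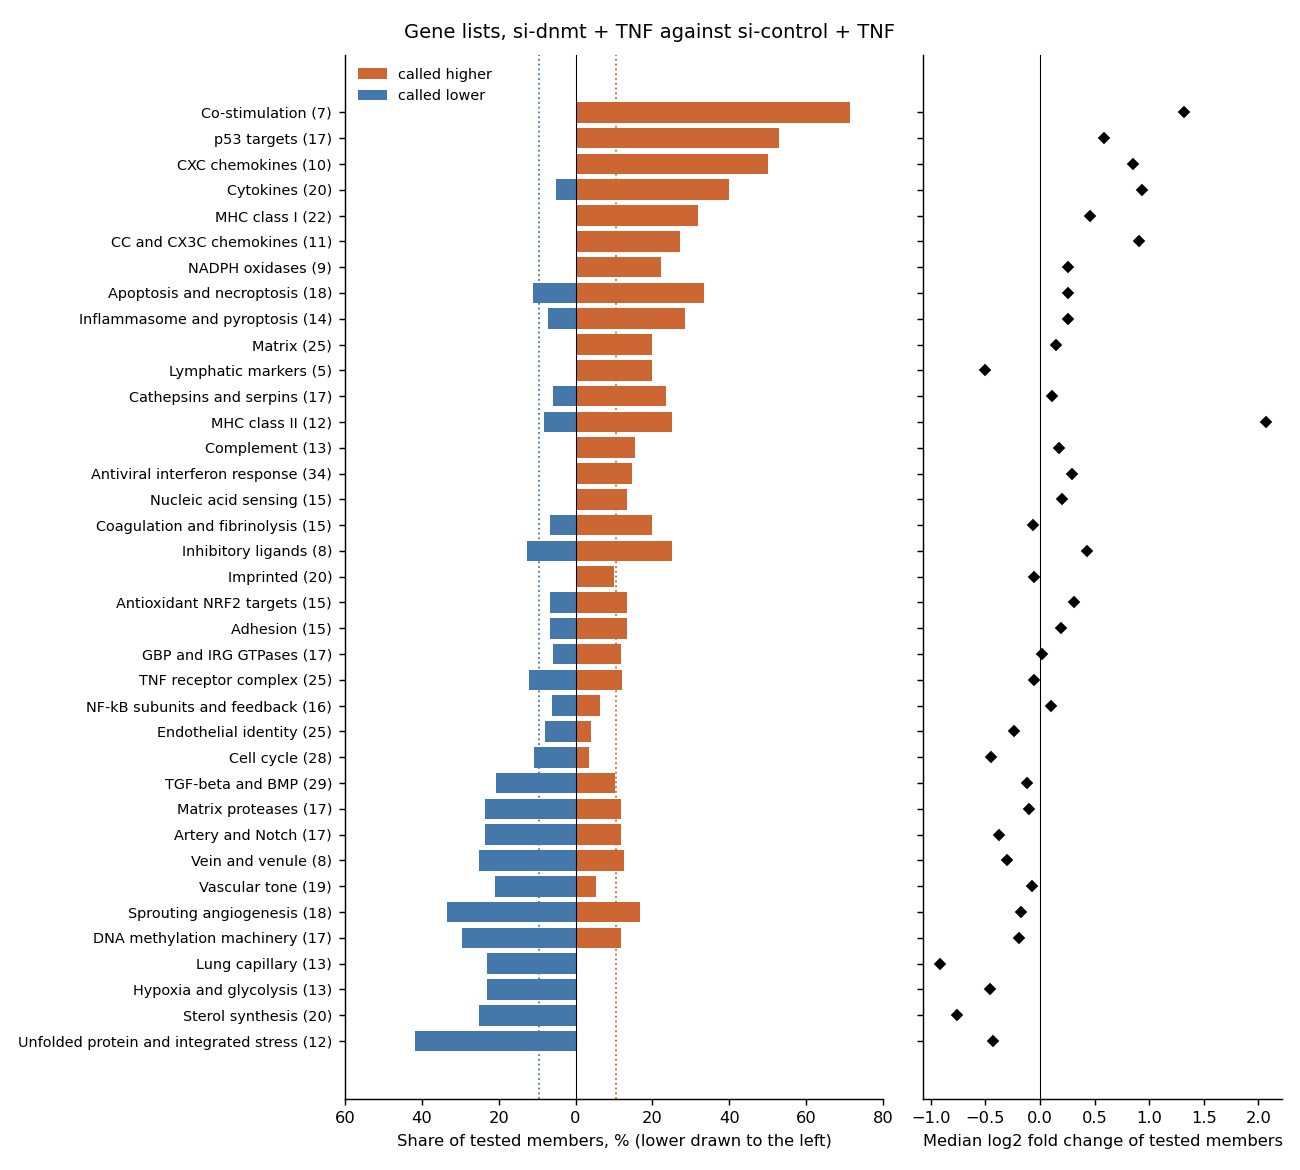
Left, the share of each list's tested members (number in brackets) called higher (orange, to the right) and lower (blue, to the left); dotted lines give the shares over all genes, 10.4% and 9.59%. Right, the median log2 fold change of the tested members. Co-stimulation, p53 targets and CXC chemokines have the highest shares of rises and the stress list the highest share of falls. The lists were chosen with earlier results of these data known, so this order is not independent evidence.

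For some named genes the values in the pairs of replicates lay far apart, a difference that was not tested. In replicates 1 and 2 and in replicates 3 and 4, the log2 fold changes were -0.85 and -2.79 for Calcb, 0.82 and 2.52 for Csf2, 0.53 and 1.88 for Cxcl1 and 0.43 and 1.57 for C3ar1, none of which passed in replicates 1 and 2 alone. For Il18 (2.41 and 0.44) and Serpine2 (-1.46 and -0.59) the change was larger in replicates 1 and 2 and did not pass in replicates 3 and 4 alone. Those of Esm1 were -1.53 and -0.39, and Reln rose by 3.37 and 1.80 and Tnf by 3.61 and 6.71. Tnfsf15 passed in neither pair alone (1.40 and 1.16).

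**Figure D5:**
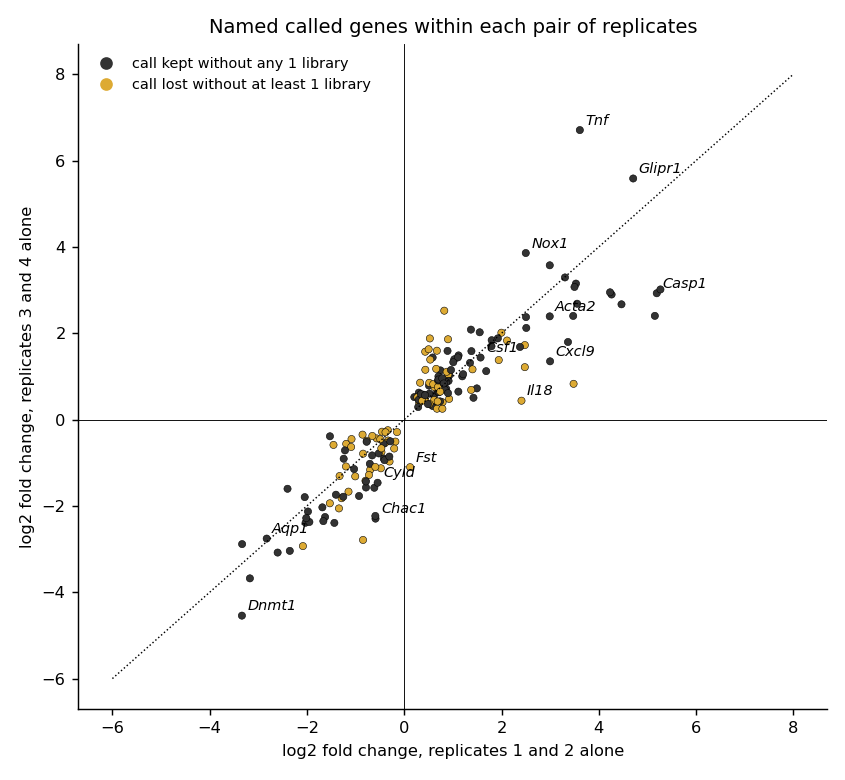
Each point is 1 of 185 named called genes, Dnmt1 included, with a value in both pairs of replicates, with its log2 fold change in replicates 1 and 2 alone on the horizontal axis and in replicates 3 and 4 alone on the vertical axis; the dotted line marks equal change. Dark points (111) kept their call without any 1 library, yellow points (74) lost it without at least 1. The 2 values had the same sign for 184 of the genes, the exception being Fst, and Casp1 and Cxcl9 changed more in replicates 1 and 2 while Chac1 and Cyld changed more in replicates 3 and 4.

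The same silencing was also made in cells without cytokine, in 8 other libraries. There 1460 genes were higher (9.57% of those tested) and 1355 lower (8.89%). Of the 1588 genes higher under TNF, 895 were also higher without cytokine, 56.4% of the one list and 61.3% of the other. Of the 1463 lower under TNF, 813 were lower without cytokine, 55.6% and 60.0%. Of the rises under TNF 1 was called lower without cytokine, and 3 of the falls were called higher. With IFN, in other libraries again, 968 rises (61.0% and 58.7% of these lists) and 858 falls (58.6% and 59.0%) were shared, and with TNF + IFN 973 rises (61.3% and 71.1%) and 900 falls (61.5% and 67.7%). Some gene lists had other counts without cytokine. The stress list had 4 higher and 0 lower (median 0.12), against 0 and 5 under TNF. The antiviral list had 24 and 0 (median 0.82), against 5 and 0 under TNF. The p53 list had 8 and 0, near its 9 and 0 under TNF. Differences of lists were not tested.

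Whether the change with silencing differed between TNF and no cytokine was tested as an interaction. It was called in 5 genes (0.0328% of those tested), 1 higher and 4 lower, with 1010 genes at an unadjusted p under 0.05. Zbp1, a sensor of Z-form nucleic acid that triggers necroptosis, went from 3.03 ± 0.789 to 24.2 ± 14.5 CPM with silencing in cells without cytokine (log2 fold change 2.99 ± 0.31), and at 73.8, 89.6, 71.4 and 68.8 CPM in si-control + TNF and 128, 146, 92.6 and 90.2 CPM in si-dnmt + TNF (log2 fold change 0.59 ± 0.27, adjusted p 0.13), a difference of -2.40 ± 0.41 (adjusted p 0.015). Vcam1 was at 46.9 ± 3.30 and 113 ± 21.1 CPM without cytokine (1.28 ± 0.11) and at 842, 839, 772 and 752 CPM in si-control + TNF and 1025, 946, 954 and 895 CPM in si-dnmt + TNF (0.25 ± 0.11), a difference of -1.02 ± 0.15 (adjusted p 0.0056). Both genes rose with silencing in cells without cytokine, and their change under TNF did not pass. Slc16a10, an aromatic amino acid transporter, went from 11.5 ± 1.16 to 14.3 ± 0.840 CPM without cytokine (0.31 ± 0.10) and from 24.3 ± 0.617 to 17.2 ± 1.66 CPM under TNF (-0.49 ± 0.10), a difference of -0.80 ± 0.14 (adjusted p 0.015). The helicase gene Ascc3 (-0.70 ± 0.13, adjusted p 0.034) and the chromatin remodelling ATPase Smarca2 (0.60 ± 0.11, adjusted p 0.034) were the other two.

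The interaction calls depended on the fit. Vcam1 kept its call without any 1 library, Zbp1 lost it without silenced replicate 3 or 4 (difference -2.31 and -2.30), and Slc16a10 without silenced replicate 1, 3 or 4 or si-dnmt replicate 3 of the cells without cytokine (-0.79 to -0.77). Ascc3 and Smarca2 lost theirs without any 1 of 13 of the 16 libraries (-0.73 to -0.65 and 0.57 to 0.64). DESeq2 called 53 genes, the block on replicate number 135 and the 4 groups fitted alone 0. For Asns (-1.47 under TNF and -0.06 ± 0.24 without, difference -1.41 ± 0.33, adjusted p 0.16) and for Mmp13 (-1.86 and 1.18 ± 0.53, difference -3.03 ± 0.60, adjusted p 0.058), the difference did not pass. Oas2, Cx3cl1 and Herpud1 had interaction p-values of 0.18, 0.23 and 0.16 after adjustment. The rises of Tnfsf4 (2.42 ± 0.22), Casp1 (3.78 ± 0.47), Csf1 (1.62 ± 0.14) and Ikbke (1.09 ± 0.08) without cytokine had adjusted p of 1.6e-08, 1.6e-06, 3.3e-09 and 5.2e-10.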

How the data were processed

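Total RNA of Veravec cultures was sequenced by the authors. The deposited values are raw counts per gene, made by the authors per library and merged by gene symbol, and featureCounts, cutadapt 4.9, FastQC 0.12.1, MultiQC 1.27.1 and DESeq2 are named in the submitters' processing notes. The aligner, genome build, annotation and strand setting were not given in the sources used here. Reads of a gene and its antisense or overlapping partner cannot be told apart, and reads of close paralogs may have been divided between them. Groups were taken from the labels.

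The merged counts of all 32 libraries were filtered (filterByExpr, minimum count 10), scaled by TMM and fitted with edgeR 4.0.16 in R 4.3.3 as 8 group means (quasi-likelihood, two-sided), with Benjamini-Hochberg adjustment over 15250 genes. Another fit with the replicate number as a block, DESeq2 1.42.0, RLE size factors, no filter, the compared groups alone, each pair of replicates alone, the per-library tables and each library left out were tried as alternatives. The numbers paired the samples only in part. Deviations from group means correlated by 0.54, 0.49, 0.42 and 0.50 between same-numbered libraries of both groups, but libraries 3 and 4 correlated best with each other's number. No pair of libraries was a duplicate. The fit was tested on simulated data.

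Named genes were a fixed set, the 15 largest rises and falls of called genes without overlap and a mean of at least 1 CPM in the higher group (predicted genes left out), the 5 largest changes in mean CPM per direction, called members of 42 gene lists and genes of the interaction. Some genes are not reported here. The members and lists were chosen with earlier results of these data known. Promoter sequence was read from a RefSeq table (GRCm38.p6), with gene symbols as the key. Intervals cover counting error only.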

Additional observations from a re-analysis of the deposited data

Results flagged for a closer look

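In 7 of 396 groups of 4 libraries, the highest or lowest library of a named gene stood apart from the others by more than Dixon's 95% critical value for 4 samples, where chance gives about 1 group in 20. In si-control + TNF these were replicate 4 for Bak1 (100.2 CPM) and Cd55 (116 CPM) and replicate 2 for Tnfsf15 (0.656 CPM). In si-dnmt + TNF they were replicate 1 for Aldoa (689 CPM) and Mmp3 (0.412 CPM), replicate 4 for Ndrg1 (28.4 CPM) and replicate 2 for Tnfrsf14 (6.24 CPM).

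The change with Dnmt1 silencing differed between cells with TNF and cells without cytokine in 5 genes by edgeR's test of the interaction, with log2 differences of 0.60 for Smarca2, -2.40 for Zbp1, -1.02 for Vcam1, -0.80 for Slc16a10 and -0.70 for Ascc3.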

How the results depend on the processing

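The 3051 calls were 1588 higher and 1463 lower. With the replicate number as a block there were 5098 calls, 2629 higher and 2469 lower, and the block ended no call of the 3051. In replicates 3 and 4 alone there were 5523, 2684 higher and 2839 lower, of which 1092 differed by at least 1 on the log2 scale. Leaving out 1 library gave 2236 to 2892 calls. The 5 interaction calls became 53 with DESeq2, 2 without the low-count filter, 135 with the replicate block, 303 in replicates 1 and 2, 1222 in replicates 3 and 4, 1 to 13 without 1 library, and 0 by edgeR in the compared groups alone. The sign turned for Ccl5 in replicates 3 and 4 alone (-0.33), for Fst in replicates 1 and 2 alone (0.12), and for Cdh5 without si-control + TNF replicate 2 (0.057) or si-dnmt + TNF replicate 3 (0.02), within a range of -0.15 to 0.057. Among values of named genes, a call was lost in 320 of 1656 left-out fits, 46 of 198 with the groups alone, 28 of 202 without the filter, 4 of 202 with RLE and none with DESeq2 or the block. The causes were not tested. Depth limits the genes under 1 CPM most, such as Glipr1 and Mmp3, which rest on few counts in 1 group.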
